A study of Mus musculus with 6 samples.

Results

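The immediate early genes described here are 10 genes chosen by symbol: Fos, Fosb, Junb, Egr1, Egr2, Egr4, Npas4, Nr4a1, Arc and Dusp1. All 10 were found among the 52550 genes of the count table, and 10 of 10 passed the filter on low counts that left 17621 genes to test. They were measured by RNA sequencing of mouse hippocampus in 3 control libraries and 3 libraries labelled L-DL KD. L-DL is the long isoform of hnRNP DL, an RNA-binding protein encoded by Hnrnpdl, and the study asked what its knockdown does to gene expression and splicing. The mice of both groups were male C57BL/6 J animals that received adeno-associated virus in the CA1 area of both hemispheres at 8 weeks of age. The virus carried shRNA against L-DL in one group and a control shRNA in the other. The control animals are called wild type in the sample labels although they too were injected, and the virus of the controls was used at a higher titre. The shRNAs stood behind the H1 promoter, which is not particular to a cell type, and a CamkIIα promoter drove only the fluorescent marker zsGreen. The time between injection and RNA sampling, and whether these animals had been through behavioural tests, are not given in the sources used here. The labels name no cage, litter or batch, so the p-values measure the spread between these libraries only.

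Immediate early genes are switched on within minutes of a stimulus by proteins that are already in the cell, so that no new protein has to be made first. In hippocampal neurons, calcium entering through NMDA receptors and voltage-gated channels activates calcium/calmodulin-dependent kinases and the MAP kinase pathway, which act on the transcription factors CREB, SRF with its partners, and MEF2. Immediate early transcripts are short-lived and are widely used as a record of recent neuronal activity, and the proteins they encode include transcription factors of the AP-1, EGR and NR4A families and effectors that act at the synapse.

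The 10 genes fell into 6 whose counts were lower in the group labelled L-DL KD and 4 with no detectable change. Arc, Egr4, Npas4, Nr4a1, Fosb and Egr1 passed the test (edgeR's quasi-likelihood test, Benjamini-Hochberg adjusted p under 0.05 over all 17621 genes), and none of the 10 was called higher. Of all genes tested, 30.5% were called, 15.0% lower and 15.6% higher, and 41.8% had an unadjusted p under 0.05. All 6 genes called lower fell at least 2-fold, where 2.96% of all genes tested were called with a fall of that size. In the same 6 genes every library labelled L-DL KD lay below every control, against 23.4% of all genes tested, with 47.2% apart in either direction. The median log2 fold change was -1.23 over the 10 genes and 0.01 over all genes tested. Summed over the 10 genes, the level was 853.5 to 1089 CPM (counts per 1000000, with library totals scaled by TMM factors) in the controls and 354.2 to 527.5 CPM in those labelled L-DL KD. Bulk RNA cannot tell fewer cells of a type from less RNA per cell.

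Library totals ranged from 16052529 to 17913064 counts. Hnrnpdl (ENSMUSG00000029328) averaged 177 ± 6.41 CPM over the 3 controls and 180 ± 33.9 CPM over the other 3 libraries (mean ± SD), a log2 fold change of 0.03 (standard error 0.12, adjusted p = 0.898, edgeR). The gene count takes all isoforms together and showed no fall, and the group is therefore called by its label. The paper assessed the knockdown on protein, by immunoblotting of L-DL in injected hippocampus, and describes L-DL as reduced there. The libraries differed in their cell type markers. Of 12 neuronal markers 9 were called lower and 1 higher, and their summed level was 5642 to 5930 CPM in the controls against 3678 to 4451 CPM in those labelled L-DL KD. All 10 microglial markers were called higher, with a summed level of 1182 to 1477 CPM in the controls and 2539 to 3251 CPM in those labelled L-DL KD. Markers of excitatory neurons (3 of 6), CA1 pyramidal neurons (3 of 6), dentate granule cells (4 of 6) and interneurons (4 of 6) were called lower with none higher, and no marker was at 0 in all libraries. The median log2 fold changes of these lists were -0.53, -0.73, -1.06 and -1.11, in the same order. Their largest falls were in Neurod6 (-2.21), Pou3f1 (-1.68), Lct (-1.60) and Slc32a1 (-1.25). Choroid plexus genes ranged from 29.45 to 5153 CPM in sum among the libraries labelled L-DL KD and from 433.4 to 4597 CPM among the controls, and none of the 5 was called.

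Up to 250 bases before the start site of 4 members are shown. Egr2 and Dusp1 were chosen because their windows hold a CArG box or a full CRE, and Fos and Fosb were added after their values were seen, as related genes of which Fosb was called lower and Fos was not. They are RefSeq windows of the build GRCm38.p6, cut before the first base that any transcript model gives as exon, and are written 5′ to 3′ on the strand of the gene. Capitals mark TGACG, the core of the cyclic AMP response element (CRE) that CREB binds, in Fos. In Fosb they mark TGACG and the EGR site GCGNGGGCG. In Egr2 they mark the CArG box, which SRF binds, and in Dusp1 the full CRE TGACGTCA, which contains TGACG on both strands. The Fos window is chr12:85473640-85473889 on the plus strand, the Fosb window chr7:19310052-19310295 on the minus strand, the Egr2 window chr10:67537316-67537565 on the plus strand and the Dusp1 window chr17:26508520-26508722 on the minus strand.
Fos: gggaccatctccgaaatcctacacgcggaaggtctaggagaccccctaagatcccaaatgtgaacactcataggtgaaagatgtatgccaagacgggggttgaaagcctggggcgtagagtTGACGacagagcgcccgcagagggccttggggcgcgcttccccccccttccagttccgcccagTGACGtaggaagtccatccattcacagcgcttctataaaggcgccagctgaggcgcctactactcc
Fosb: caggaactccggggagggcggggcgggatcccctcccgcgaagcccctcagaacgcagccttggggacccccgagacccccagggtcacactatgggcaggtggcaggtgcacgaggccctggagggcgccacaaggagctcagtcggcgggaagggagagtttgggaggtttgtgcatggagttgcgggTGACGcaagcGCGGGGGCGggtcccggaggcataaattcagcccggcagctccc
Egr2: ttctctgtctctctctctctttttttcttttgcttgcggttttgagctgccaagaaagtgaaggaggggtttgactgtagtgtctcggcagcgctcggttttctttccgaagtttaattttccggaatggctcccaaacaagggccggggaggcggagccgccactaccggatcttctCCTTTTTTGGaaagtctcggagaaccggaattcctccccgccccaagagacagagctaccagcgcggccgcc
Dusp1: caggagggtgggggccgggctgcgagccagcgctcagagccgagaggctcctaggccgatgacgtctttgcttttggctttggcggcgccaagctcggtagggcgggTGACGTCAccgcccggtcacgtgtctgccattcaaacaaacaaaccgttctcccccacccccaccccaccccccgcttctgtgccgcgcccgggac

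A window was found for 8 of the members, with 12 windows in all because Egr2 has several, which overlap in part. TGACG stood in 10 of these 12 windows, on either strand, and in 20.8% of the 32851 windows of all genes. The 10 windows belonged to all 8 members, while the Egr2 window printed here has no TGACG. The full CRE was present in 1 of the 12 windows (Dusp1) and in 1.79% of all windows, the CArG box in 4 (all of Egr2) and in 1.63%, and the EGR site in 2 (Fosb and Nr4a1) and in 5.55%. The AP-1 site TGANTCA was in none of the 12 and in 7.81% of all windows. TGACG was thus found both in members called lower (Fosb, Egr4, Npas4, Nr4a1) and in members not called (Fos, Junb, Egr2, Dusp1). These are matches of letters in a window and not measured binding.

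Of the AP-1 genes among the 10, only Fosb was called lower, and with the neuronal scaling given below none was. Fos (ENSMUSG00000021250, chr12:85473890-85477273), whose product pairs with JUN proteins to form the AP-1 factor, was at 35.7, 40.4 and 32.0 CPM in the controls and 28.0, 30.9 and 43.3 CPM in those labelled L-DL KD. The groups overlapped, with the highest and the lowest of the 6 values both in libraries labelled L-DL KD. For Fos this gave a log2 fold change of -0.08 (standard error 0.17, adjusted p = 0.756, edgeR), with a 95% confidence interval of -0.47 to 0.31. Junb (ENSMUSG00000052837, chr8:84974484-84978718), an AP-1 partner of FOS, was at 121, 118 and 89.4 CPM in the controls and 103, 94.9 and 135 CPM in those labelled L-DL KD. These groups overlapped too, with a log2 fold change of 0.02 (standard error 0.16, adjusted p = 0.933, edgeR; 95% confidence interval -0.34 to 0.38). Junb shares 173 exon bases with Prdx2 on the other strand, and whether counting used strand is not stated. Fosb (ENSMUSG00000003545, chr7:19302696-19310051) encodes a FOS relative whose truncated form, ΔFosB, is long-lived and accumulates with repeated stimulation. It was at 30.2, 27.7 and 28.1 CPM in the controls and 6.49, 11.9 and 17.97 CPM in those labelled L-DL KD. The controls lay close together, and the other group was lower in every library but spread over 2.77-fold. The fall was 2.37-fold, a log2 fold change of -1.24 (standard error 0.30, adjusted p = 0.0171, edgeR; 95% confidence interval -1.94 to -0.54). Without control replicate 1, control replicate 3 or L-DL KD replicate 2, Fosb missed the threshold, with adjusted p of 0.0598, 0.0525 and 0.0560.

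The EGR genes encode zinc finger transcription factors, and Egr4 fell the most of the 3 members. Egr4 (ENSMUSG00000071341, chr6:85511121-85513589) was at 40.7, 35.9 and 33.3 CPM in the controls and 13.5, 7.73 and 8.15 CPM in those labelled L-DL KD. The groups lay well apart, the highest library labelled L-DL KD being below the lowest control by more than the range within either group. The fall was 3.73-fold, a log2 fold change of -1.90 (standard error 0.22, adjusted p = 0.000677, edgeR). Egr1 (ENSMUSG00000038418, chromosome 18), also known as Zif268 and required for the late phase of long-term potentiation, was at 238, 259 and 196 CPM in the controls and 63.2, 87.3 and 148 CPM in those labelled L-DL KD. All libraries labelled L-DL KD were below the controls, but they differed 2.34-fold among themselves, with replicate 3 closest to the controls. This was a log2 fold change of -1.22 (standard error 0.27, adjusted p = 0.0122, edgeR), a fall of 2.33-fold. Egr2 (ENSMUSG00000037868, chr10:67535475-67542188), known for its role in myelination and the gene with the CArG box shown above, was at 11.6, 11.6 and 8.05 CPM in the controls and 4.84, 5.65 and 9.22 CPM in those labelled L-DL KD. L-DL KD replicate 3 lay above control replicate 3, so the groups overlapped. The log2 fold change of -0.66 (standard error 0.27) did not pass (adjusted p = 0.0960, edgeR; unadjusted p = 0.0372), and its 95% confidence interval ran from -1.28 to -0.05. Without L-DL KD replicate 3 Egr2 was called lower, with a log2 fold change of -0.98 and an adjusted p of 0.0174.

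Npas4 and Nr4a1 encode transcription factors of other families. Npas4 (ENSMUSG00000045903, chr19:4984355-4990316), a bHLH-PAS factor induced selectively by calcium influx in neurons and involved in the control of inhibitory synapses, was at 22.6, 23.4 and 17.0 CPM in the controls. Libraries labelled L-DL KD had 9.30, 6.72 and 8.21 CPM, below all controls and with less spread than Fosb or Egr1. It fell 2.60-fold, a log2 fold change of -1.38 (standard error 0.18, adjusted p = 0.00117, edgeR). Nr4a1 (ENSMUSG00000023034, chr15:101254269-101274795), an orphan nuclear receptor also called Nur77, was at 131, 126 and 105 CPM in the controls and 38.4, 48.0 and 57.8 CPM in those labelled L-DL KD. The lowest control was thus well above the highest of the other group. The fall was 2.51-fold, a log2 fold change of -1.33 (standard error 0.15, adjusted p = 0.000685, edgeR).

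Arc, the effector among the 10, fell the most of them. Arc (ENSMUSG00000022602, chr15:74669083-74672570) encodes a protein of the postsynaptic density that promotes the removal of AMPA receptors from the synapse and whose mRNA travels into dendrites. It was at 337, 412 and 321 CPM in the controls and 65.2, 78.6 and 66.3 CPM in those labelled L-DL KD, that is, 357 ± 48.6 against 70.0 ± 7.45 CPM (SD, n = 3). The 3 libraries labelled L-DL KD were close to each other and far below the controls. The fall was 5.09-fold, a log2 fold change of -2.35 (standard error 0.12, adjusted p = 7.26e-05, edgeR; 95% confidence interval -2.62 to -2.07). It ranked 35 in size of fall among the 17621 genes tested, and of the 8793 genes with a mean of at least 20 CPM none fell more than Arc. For Egr4 there were 5 such genes that fell more.

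Dusp1 (ENSMUSG00000024190, chr17:26505590-26562128) encodes a phosphatase that switches MAP kinases off and so acts as feedback on the pathway that induces it. It was at 32.7, 34.5 and 24.8 CPM in the controls and 22.0, 32.9 and 34.1 CPM in those labelled L-DL KD. The groups overlapped almost completely. Its log2 fold change stood at -0.05 (standard error 0.19, adjusted p = 0.873, edgeR; 95% confidence interval -0.49 to 0.39). The intervals of Fos, Junb and Dusp1 thus leave out a fall of 2-fold, while that of Egr2 includes it. Dusp1 shares 11 exon bases with Ergic1 on the other strand.

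**Figure D1:**
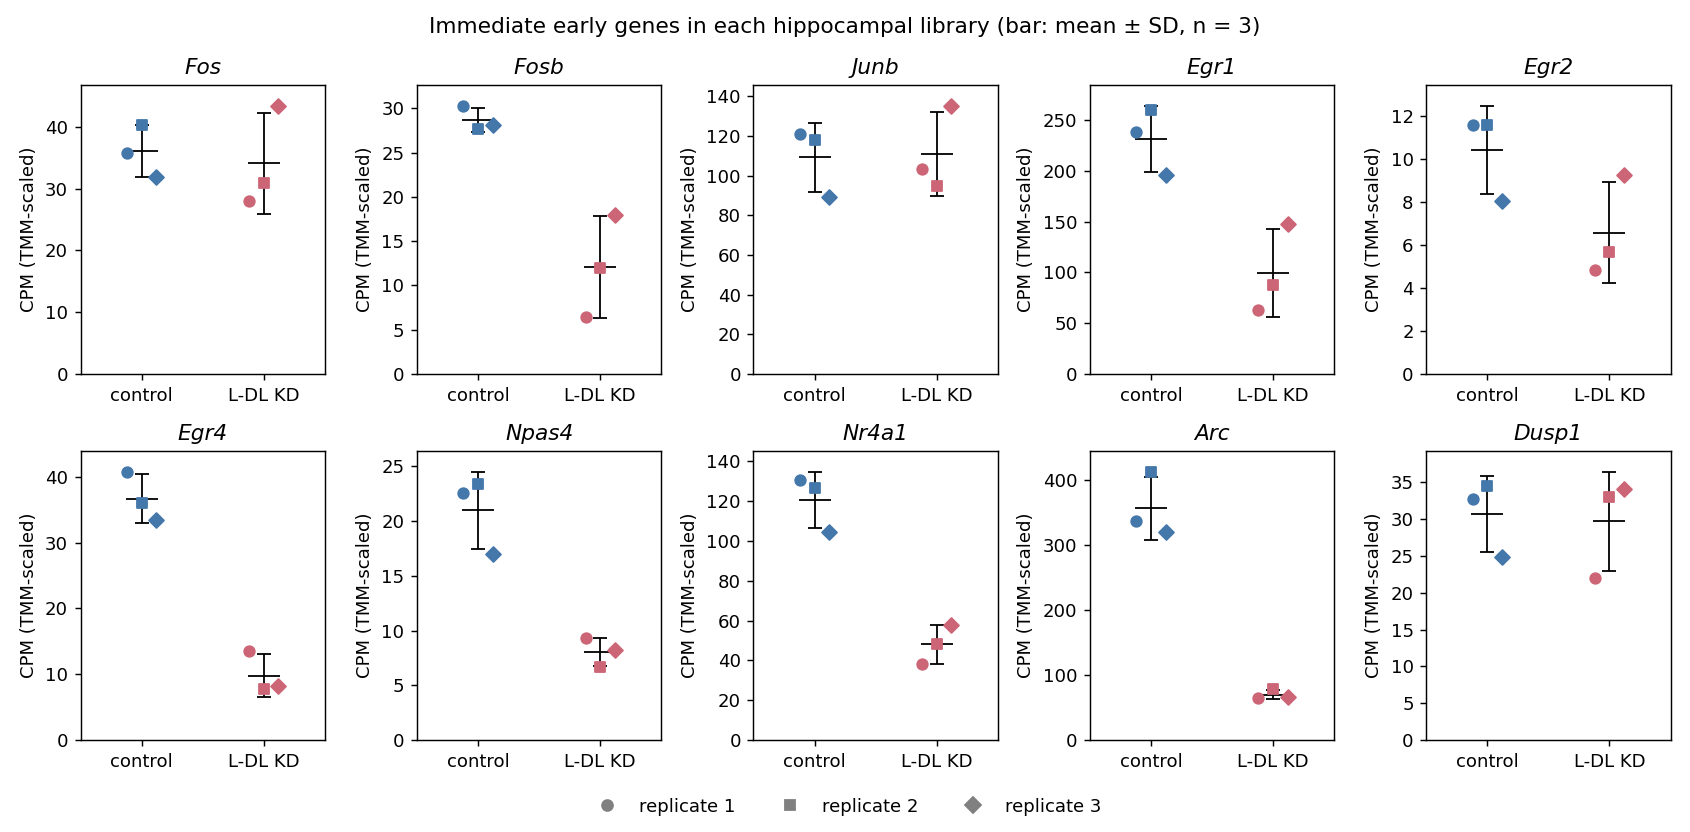
Level of each of the 10 genes in every library, in TMM-scaled CPM (y axes, linear and from 0), with controls in blue and libraries labelled L-DL KD in red. Point shapes give the replicate, and horizontal lines and bars the mean ± SD (n = 3). Arc, Egr4, Npas4, Nr4a1, Fosb and Egr1 show no overlap between the groups, with Arc at 321 CPM or more in the controls and 78.6 CPM or less in the other group, while Fos, Junb, Egr2 and Dusp1 overlap.

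Within a group the genes moved together only in part. Control replicate 3 was the lowest control for 9 of the 10 genes, the exception being Fosb, and control replicate 2 was the highest for 6 and control replicate 1 for 4. Among the libraries labelled L-DL KD, replicate 3 was the highest for 7 genes (Fos, Fosb, Junb, Egr1, Egr2, Nr4a1 and Dusp1) and replicate 1 the lowest for 7 (Fos, Fosb, Egr1, Egr2, Nr4a1, Arc and Dusp1). Egr4 and Npas4 differed from these, with replicate 1 highest and replicate 2 lowest. Of this group, replicate 3 had the lowest sum of neuronal markers (3678 CPM) and replicate 1 the highest (4451 CPM). Whether the levels of the 10 genes followed the neuronal sum was not tested. The coefficient of variation was larger in libraries labelled L-DL KD for 8 of the 10 genes, and for 65.5% of all genes tested. The spread within groups on the log2 scale was larger for Fosb than for 93.8% of all genes tested and larger for Egr1 than for 92.0%, while Arc was near the middle (51.0%).

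Divided by length, the order of the genes differed between the groups. Length is that of all annotated exons merged, so transcript models that keep an intron lengthen a gene. Fosb had 6243 nt in 2 merged exons, and its place in the order depends on this choice. On the scale of CPM per kilobase of exon, the mean control levels were 117 for Arc, 51.5 for Egr1, 47.5 for Junb, 34.4 for Nr4a1, 17.1 for Egr4, 15.3 for Fos, 9.26 for Dusp1, 5.07 for Npas4, 4.59 for Fosb and 3.06 for Egr2. The ranges of Egr1 and Junb, of Egr4 and Fos and of Npas4 and Fosb overlapped, and the other neighbours did not. Among those labelled L-DL KD the first place went to Junb with 48.3 CPM per kilobase, followed by Arc with 22.9, Egr1 with 22.2, Fos with 14.5, Nr4a1 with 13.7 and Dusp1 with 8.96. Egr4 was at 4.56, Npas4 at 1.95, Fosb at 1.94 and Egr2 at 1.93 CPM per kilobase there. Neighbours from Arc to Nr4a1 overlapped in this group, as did Npas4, Fosb and Egr2. Arc was thus above Junb in every control and below it in every library labelled L-DL KD.

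A ratio of 2 counts from the same library does not depend on how libraries are scaled. Fos was taken as the denominator after its values were known, because it was not called. Lower ratios of the genes called lower therefore restate those calls and are not separate evidence. Arc had 9.43, 10.2 and 10.03 counts for each count of Fos in the controls and 2.33, 2.54 and 1.53 in those labelled L-DL KD. Egr1 had 6.66, 6.43 and 6.13 counts per count of Fos in the controls and 2.26, 2.83 and 3.41 in the other group. For both genes the 3 controls were close to each other and well above the other group. Nr4a1 went from 3.35 ± 0.270 to 1.42 ± 0.118, Egr4 from 1.02 ± 0.125 to 0.307 ± 0.156, Fosb from 0.803 ± 0.103 to 0.344 ± 0.0984, Npas4 from 0.581 ± 0.050 to 0.246 ± 0.0755 and Egr2 from 0.287 ± 0.0358 to 0.190 ± 0.0208 counts per count of Fos (SD, n = 3). For these 7 of the 9 ratios the groups did not overlap, where 24.2% of all genes tested did not overlap in either direction and 7.59% were lower without overlap. Egr2, whose CPM values overlapped, was lower without overlap when set against Fos of the same library. Junb stood at 3.03 ± 0.309 and 3.29 ± 0.344 and Dusp1 at 0.849 ± 0.0694 and 0.879 ± 0.161 counts per count of Fos (SD, n = 3), and both overlapped. The two-sided exact permutation test gave p = 0.1 for each of the 7 ratios, the smallest that 3 against 3 libraries allow, and 0.4 for Junb and 0.8 for Dusp1. No ratio could therefore have reached 0.05 in this test. Adjusted over the 9 ratios, which all share the counts of Fos, the 7 stood at 0.129.

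**Figure D2:**
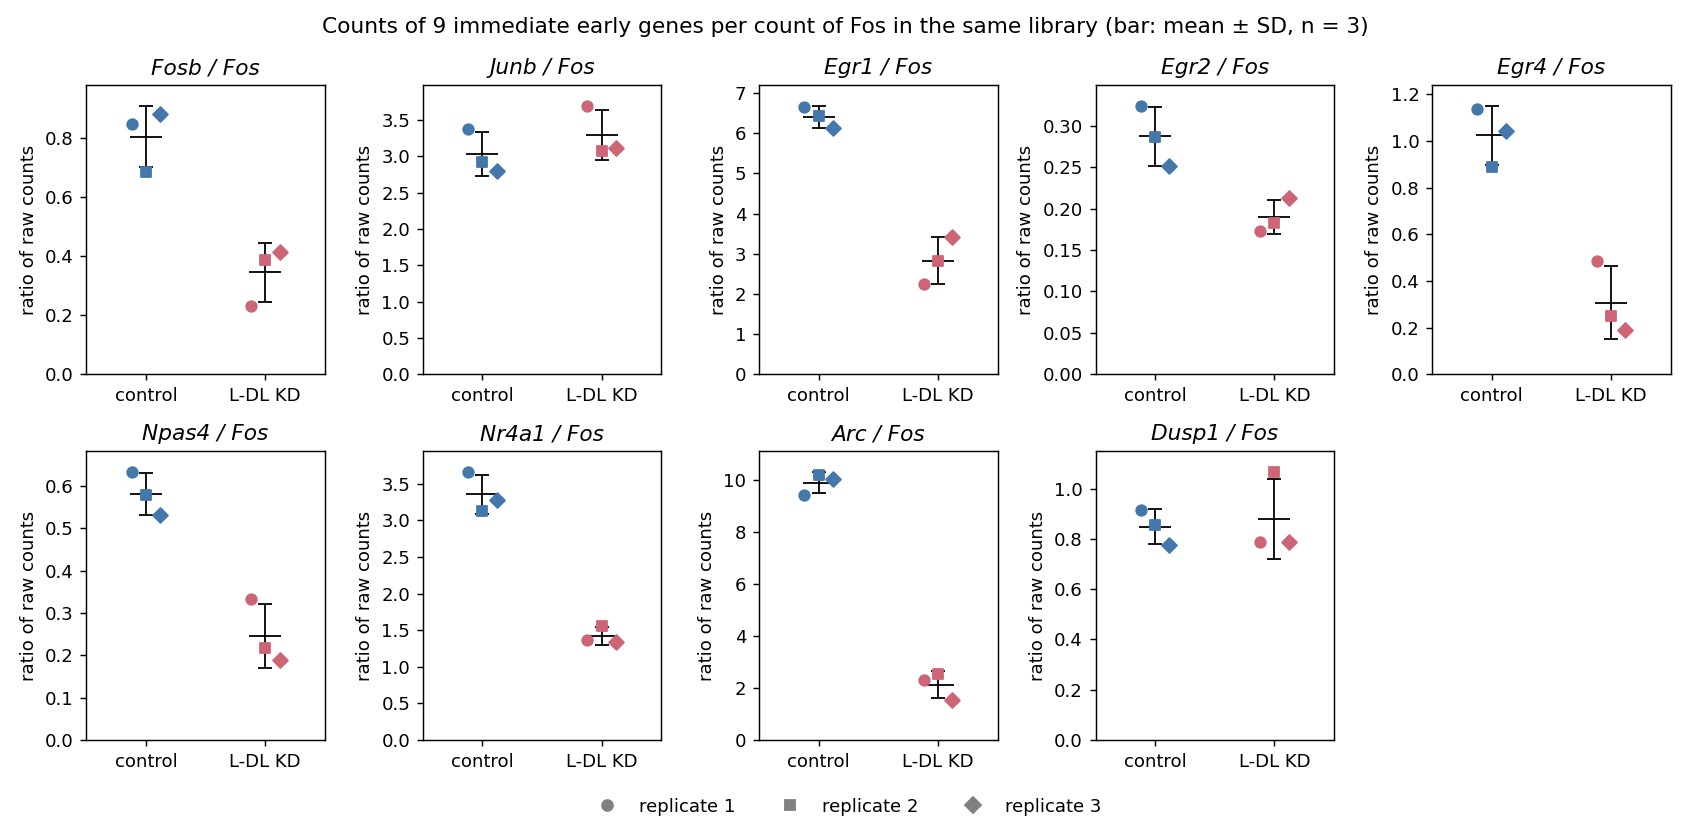
Raw counts of 9 genes per count of Fos in the same library (y axes, linear and from 0), for 3 controls (blue) and 3 libraries labelled L-DL KD (red). Point shapes give the replicate, and lines and bars the mean ± SD (n = 3). The ratio of Arc is 9.43 to 10.2 in the controls and 1.53 to 2.54 in the other group, and only Junb and Dusp1 overlap between the groups.

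Since the neuronal markers were lower in libraries labelled L-DL KD, the fit was repeated with libraries scaled to the summed counts of the 12 neuronal markers. This moved the median log2 fold change of all genes up by 0.49. On this scale 3.29% of all genes tested were called lower and 51.2% higher. Arc (log2 fold change -1.86, standard error 0.14), Egr4 (-1.42, standard error 0.20), Npas4 (-0.89, standard error 0.20) and Nr4a1 (-0.82, standard error 0.20) were called lower, with adjusted p-values of 0.00653 or less by edgeR. Fosb at -0.71 (adjusted p = 0.0979), Egr1 at -0.69 (adjusted p = 0.0839) and Egr2 at -0.14 (adjusted p = 0.709, edgeR) did not pass. Junb was called higher, with a log2 fold change of 0.53 (adjusted p = 0.0446), and Fos at 0.43 and Dusp1 at 0.46 turned positive without passing. Neuronal markers outside the 12 also moved on this scale. Neurod6 was called lower at -1.74 and Pou3f1 at -1.20, while Nrgn was called higher at 0.38 and Fibcd1 at 0.83. The part of the microglial rise in these results was not tested.

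**Figure D3:**
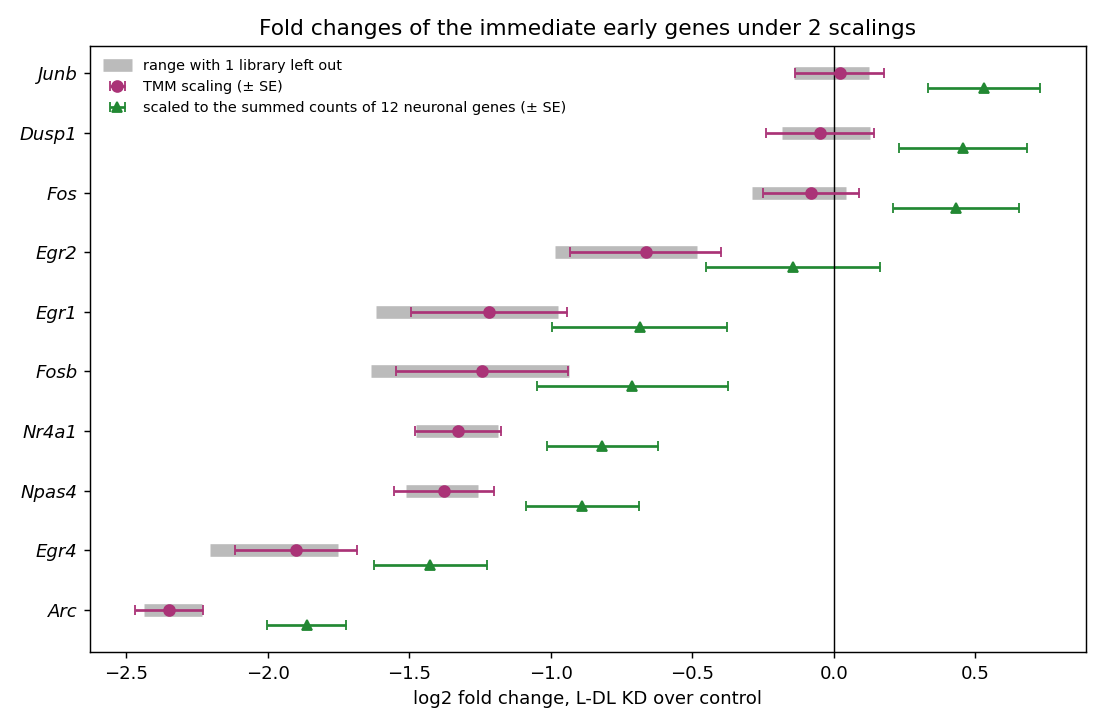
Log2 fold change of the 10 genes (x axis, libraries labelled L-DL KD over control, ± standard error) with TMM scaling (circles) and with scaling to the summed counts of 12 neuronal markers (triangles). Grey bars give the range of the TMM value when 1 of the 6 libraries is left out. Arc lies at -2.35 and -1.86 and Junb at 0.02 and 0.53 on these scales.

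A wider list of 40 other immediate early genes held calls in both directions. Of these 8 were called lower, 9 higher and 23 not called, with a median log2 fold change of 0.09. Over all genes tested, 15.0% were called lower and 15.6% higher, so these counts were not far above the general share. None of the 10 genes was called higher, and the difference between the lists was not tested. Among 15 other transcription factors 2 were lower and 1 higher. The falls were Egr3, the fourth EGR gene, with a log2 fold change of -1.25 (standard error 0.07, adjusted p = 7.26e-05, edgeR), and Nr4a3, a relative of Nr4a1, with -1.34 (standard error 0.25, adjusted p = 0.00564, edgeR). With neuronal scaling Egr3 was at -0.75 (adjusted p = 0.000730) and Nr4a3 at -0.81 (adjusted p = 0.0377). With Egr1 and Egr4, 3 of the 4 EGR genes were called lower with TMM scaling, and Egr3 and Egr4 were with neuronal scaling. Jun, the AP-1 partner of Fos, was called higher on both scales. Among 13 feedback genes 1 (Plk2) was lower and 5 were higher (Gadd45g, Trib1, Btg2, Zfp36 and Rgs2). Gadd45g, a stress-response gene, rose by 1.59 on the log2 scale (standard error 0.21, adjusted p = 0.00127, edgeR) and Trib1, a pseudokinase, by 1.29 (standard error 0.27, adjusted p = 0.00859, edgeR).

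Among 12 effectors 5 were lower (Homer1, Inhba, Nptx2, Vgf and Nrn1) and 3 higher (Gem, Ccn1 and Scg2). Homer1, a scaffold of metabotropic glutamate receptors with a short activity-induced isoform that these counts do not separate, had a log2 fold change of -1.01 (standard error 0.22, adjusted p = 0.0104, edgeR). Inhba, a subunit of activin, had -0.95 (standard error 0.16, adjusted p = 0.00330, edgeR). The largest rise of the list was in Gem, a small GTPase that inhibits calcium channels, with 2.27 (standard error 0.31, adjusted p = 0.00140, edgeR), and Ccn1, a secreted matrix protein, had 1.58 (standard error 0.20, adjusted p = 0.00117, edgeR). With neuronal scaling 4 of the 40 were called lower and 20 higher, and Homer1 (-0.48) and Inhba (-0.45) did not pass. On that scale 3.29% of all genes tested were called lower and 51.2% higher. With TMM scaling and without L-DL KD replicate 1, the number of the 40 called higher was 15.

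**Figure D4:**
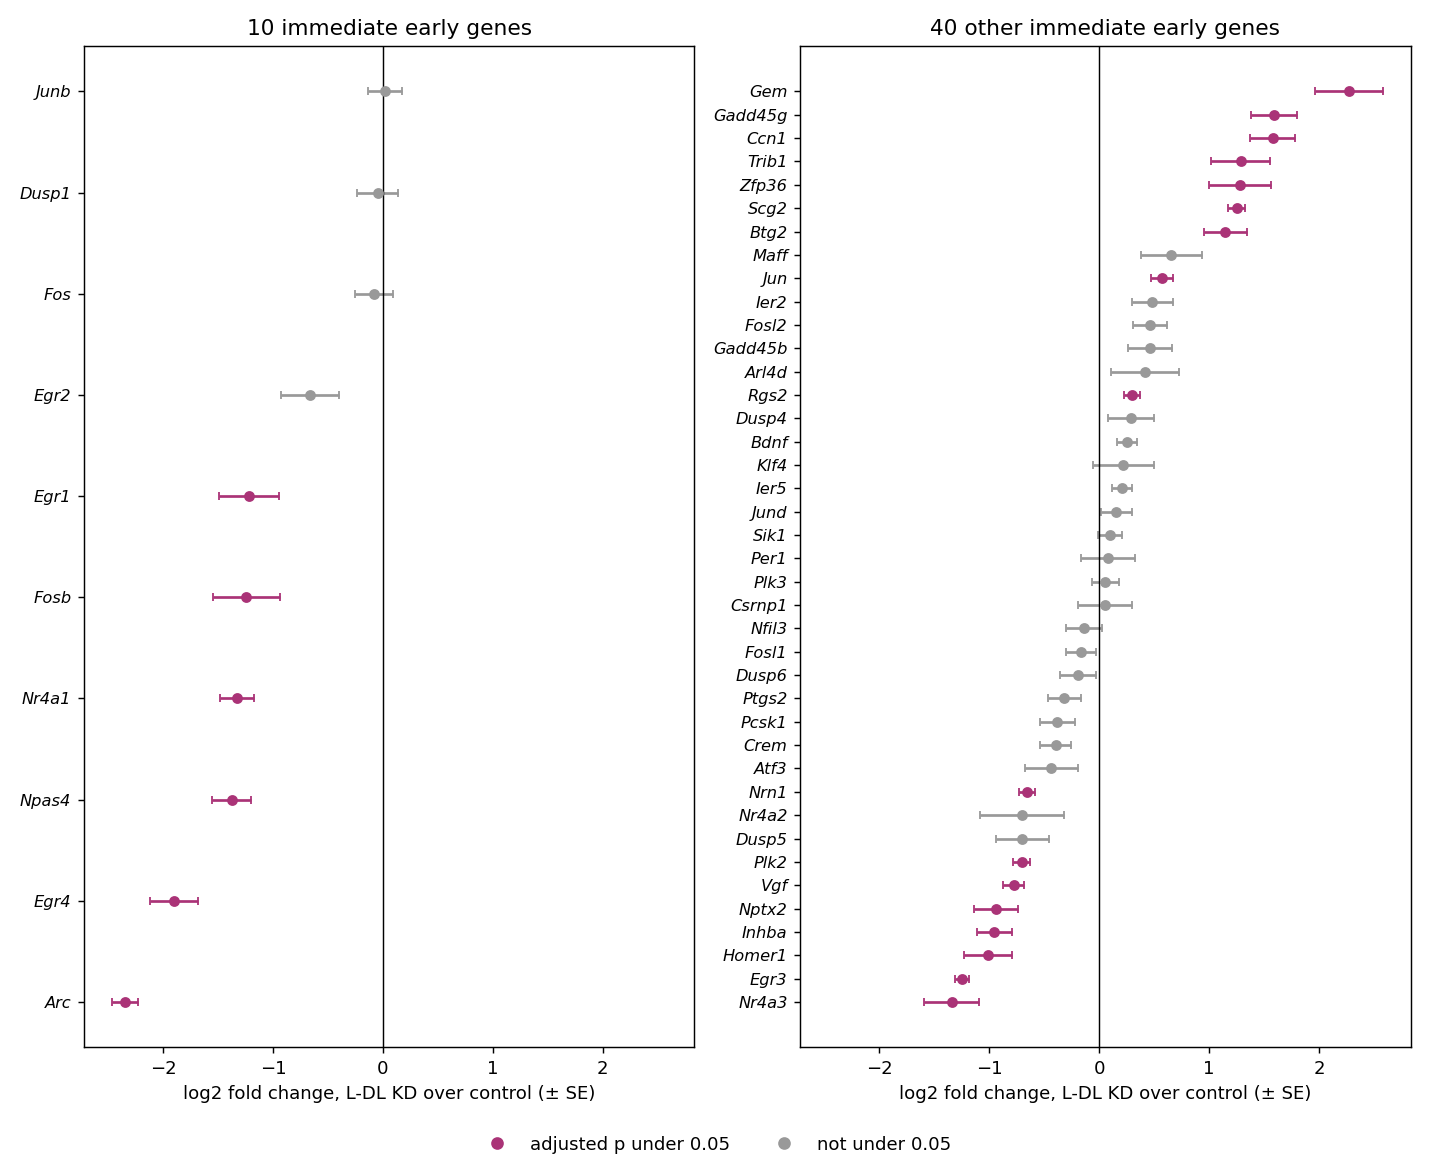
Log2 fold change (x axis, libraries labelled L-DL KD over control, ± standard error) of the 10 genes (left) and of 40 other immediate early genes (right), ordered by size. Coloured points have an adjusted p under 0.05 (edgeR) and grey points do not. On the left 6 genes are called, all lower, and on the right 8 are lower and 9 higher, from Nr4a3 at -1.34 to Gem at 2.27.

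Of 29 genes that carry the signal from the synapse to the promoters of immediate early genes, 13 were called lower and 4 higher, with a median log2 fold change of -0.23. The shares over all genes tested were 15.0% lower and 15.6% higher. Among 7 receptors and channels 4 were lower and none higher, and among 10 kinases 5 were lower and 1 higher. The largest falls were in Camk2a, the major calcium/calmodulin-dependent kinase of excitatory neurons, with -0.73 (standard error 0.07, adjusted p = 0.000324, edgeR), and Camkk2, an upstream activator of such kinases, with -0.70 (standard error 0.07, adjusted p = 0.000504, edgeR). Crtc1, a calcium-regulated coactivator of CREB, had -0.68 (standard error 0.08, adjusted p = 0.000918, edgeR) and the kinase Rps6ka2 had -0.57 (standard error 0.08, adjusted p = 0.00152, edgeR). Of the 12 transcription factors and coactivators 4 were lower and 3 higher. The rises were in Mef2c, with 0.79 (standard error 0.11, adjusted p = 0.00134, edgeR), Elk4, an SRF partner, with 0.45 (standard error 0.11, adjusted p = 0.0170, edgeR), and Mef2d, with 0.27 (standard error 0.06, adjusted p = 0.0127, edgeR). Mef2c is also expressed in microglia. The MAP kinase gene Mapk3, which encodes ERK1, had 0.59 (standard error 0.07, adjusted p = 0.000864, edgeR). All 4 of these falls were smaller than those of the 6 immediate early genes called lower. With neuronal scaling 1 of the 29 was called lower (Camk2a, at -0.24) and 13 higher, and Camkk2 (-0.21), Crtc1 (-0.20) and Rps6ka2 (-0.08) did not pass. Over all genes tested, 3.29% were called lower and 51.2% higher on this scale, so these counts were near the general share.

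The genes most like the 10 in their pattern over the 6 libraries changed much less. The mean of the 10 genes, each as log2 CPM centred on its own mean, was 0.60, 0.63 and 0.31 in the controls and -0.72, -0.58 and -0.24 in those labelled L-DL KD. Among 12551 genes outside all lists with a mean of at least 5 CPM, the highest correlation with this mean over the 6 libraries was that of Rnf115 (Pearson r = 0.999), followed by Pknox2 (0.997), Naa50 (0.996), Gtpbp1 (0.995) and Zfp157 (0.994). Over 6 points that fall into 2 groups such values are common, and 247 genes had an r above 0.95. Rnf115 went from 56.7 to 62.6 CPM in the controls to 41.9 to 48.5 CPM in those labelled L-DL KD, a log2 fold change of -0.42.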

How the data were processed

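RNA of mouse hippocampus was measured in 6 libraries. The deposited values are whole-number counts of reads on each Ensembl gene, which the authors did not normalize, and a table of rMATS junction counts of inclusion and skipping forms. Per the paper, 150 nt pairs from oligo(dT)-selected RNA were aligned to GRCm38 (Ensembl release 90). The submitters' processing notes list HISAT2 (2.1.0), HTSeq (0.6.1) and Bowtie (1.1.2), with no role given. Columns of p-values, FDR and PSI from the authors' own comparison were not used.

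Of 52550 gene IDs, 52403 matched a symbol, and 170 of 170 list genes were found (3 by a synonym). A gene was tested if 3 or more libraries held 10 or more of its counts. Tests were run with edgeR (4.0.16; quasi-likelihood, TMM, Benjamini-Hochberg over all genes tested) in R (4.3.3), with controls and L-DL KD as the 2 groups. CPM is a count per 1000000 of the TMM-scaled library total, and log2 CPM for the pattern used a pseudocount of 0.5. Exon lengths and overlaps were taken from GENCODE. Ratios, motifs and permutation tests were computed in Python (3.11.15) with pandas (2.3.3) and scipy (1.17.1). On simulated counts for 17621 genes, of which 200 were changed 2-fold, 60.0% of the changed genes were recovered, and 10 unchanged genes were called. Alternatives used DESeq2 (1.42.0), limma-voom (3.58.1), other scalings and filters, a replicate block, and each library left out. No replicate pair was alike within sampling noise.

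The members, lists and tests were chosen with earlier results of these data known. All 10 members are named. Of the other immediate early and upstream genes, the 4 largest rises and falls among called genes without overlap are named with values. The nearest patterns are the 5 genes of highest correlation. Other genes are named only as part of a count, and the Fos and Fosb promoters and the ratio to Fos were added after values were seen. The columns of the junction table name 2 sets of libraries but no group. The paper's direction of the PSI change would make the first set L-DL KD, but groups were taken from sample labels only, so the planned test of splicing in the members was not run. Promoters of Arc and Egr1 were not used here.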

Additional observations from a re-analysis of the deposited data

Results flagged for a closer look

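The junction table, which no comparison above uses, lists 5 splicing events in 4 of the 10 genes. Each had more counts of its rarer form than the 3 that a count of 0 allows. No sample label or column name says which of the table's 2 sets of 3 libraries is which group. The paper takes a PSI change as L-DL KD minus control, which would make the first set L-DL KD, but this was not used as an assignment. Counts are therefore given over all 6 libraries, and no comparison between groups was made. The counts are reads across junctions and cover counting error only.

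Fosb has a retained intron of 140 nt at chr7:19305007-19305146 (GRCm38, minus strand), whose removal separates the truncated ΔFosB form from full-length FosB. It had 333 counts of the form that keeps the segment and 63 of the spliced form. After division by effective length, the spliced form made up 26.8% of the sum. Fosb also has an alternative 3′ splice site at chr7:19307324-19307440, whose shorter form had 4 counts of 204.

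Dusp1 has a retained intron of 369 nt at chr17:26507205-26507573, with 51 counts of the retained form and 333 of the spliced form. Fos has a retained intron of 139 nt at chr12:85474796-85474934, with 60 counts of the retained and 22 of the spliced form. For Npas4, the table lists a skipped exon of 110 nt at chr19:4987778-4987887, with 144 inclusion and 15 skipping counts. All 15 skipping counts came from 2 of the 6 libraries, with 5 and 10, and the others had 0.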

How the results depend on the processing

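The number of members called lower was 6 with scaling by library size or upper quartile, DESeq2, limma-voom, no filter, a minimum of 50 counts, and the replicate block, 7 at an unadjusted p under 0.05, and 5 to 7 with 1 library left out. Scaled to neuronal markers it was 4, with 1 member called higher, against 0 otherwise. On that scale the other immediate early genes called lower fell from 8 to 4 and those called higher rose from 9 to 20, and the upstream genes went from 13 to 1 lower and from 4 to 13 higher. Over all genes tested, the share called lower went from 15.0% to 3.29% and that called higher from 15.6% to 51.2%. With 1 library left out, the other immediate early genes numbered 8 to 10 lower and 8 to 15 higher, and the upstream genes 9 to 16 lower and 2 to 6 higher, the 2 being without control replicate 1 or 3. The cause was not tested. Arc ranged from -2.44 to -1.86 on the log2 scale over 14 alternatives, with an adjusted p of 0.00106 or less in each.

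The sign of 3 genes that were not called turned. With 1 library left out, Fos ranged from -0.29 to 0.045, with 0.01 without control replicate 2 and 0.045 without L-DL KD replicate 1. Dusp1 ranged from -0.18 to 0.13, with 0.04 and 0.13 in the same order. Junb ranged from -0.14 to 0.13, with -0.11 without control replicate 3 and -0.14 without L-DL KD replicate 3. With neuronal scaling Fos was at 0.43 and Dusp1 at 0.46. Same-numbered libraries deviated with correlations of 0.06, 0.16 and -0.14, which gave no clear sign of pairing by number. The labels state no pairing, and these values cannot settle whether there was one. The replicate block called 4634 genes in place of 5379.

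Among called genes, 51.0% were higher with TMM, 56.1% with library size and 94.0% with neuronal scaling. The splicing test and its alternatives were not run.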

Other observations

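Heat shock genes, whose products fold proteins and which are not immediate early genes, moved apart from each other. Hspa1a was at 16.2, 26.2 and 23.5 CPM in the controls and 3.08, 6.61 and 4.94 CPM in the libraries of the other group, a log2 fold change of -2.17 (standard error 0.29, adjusted p = 0.00132 from edgeR). Hspa1b, a near-identical copy that can share reads with Hspa1a, had -2.31 (standard error 0.31, adjusted p = 0.00142 from edgeR), and Dnajb1 had -1.15 (standard error 0.10, adjusted p = 0.000244 from edgeR). Hspb1, a small heat shock protein, was at 34.3 ± 3.67 CPM in the controls and 160.1 ± 12.9 CPM in the other group (SD, n = 3), a rise of 2.22 on the log2 scale (standard error 0.10, adjusted p = 6.45e-05 from edgeR). Of the 5 heat shock genes 4 were called lower and 1 higher. Scaled to neuronal markers, 3 were called lower and 1 higher.

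Of 7 interferon response genes 4 were called higher and none lower, with a summed level of 300.3 to 453 CPM in the controls and 372.9 to 699.6 CPM in the other group, so that the sums overlapped. Of 8 astrocyte markers 3 were called lower and 1 higher, of 7 oligodendrocyte markers none lower and 1 higher, of 6 endothelial markers none lower and 2 higher, and none of 7 blood and lymphoid genes was called. For comparison, 15.0% of all genes tested were called lower and 15.6% higher.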
